A study of Mus musculus with 6 samples.

Results

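The genes described here are 9 chemokine receptors of regulatory T cells (Treg cells): Ccr2, Ccr4, Ccr6, Ccr7, Ccr8, Ccr9, Cxcr3, Cxcr4 and Cxcr6. They were chosen by gene symbol from a table of 23992 symbols, taking for each symbol the transcript row with the most reads. All 9 were in the table, in 16 rows, and all 9 were among the 12720 genes that passed the filter on low counts. RNA was sequenced from Treg cells, in 3 libraries labelled KO and 3 labelled WT. By the labels, the cells were sorted as live CD4+ YFP+ cells from spleen and pooled lymph nodes of CD45.2 mice. The deposited table is instead named for lung, and lung epithelial transcripts were present in all libraries. KO stands for Foxp3YFP-Cre/Y Crlf2fl/fl mice, in which the floxed Crlf2 gene meets a Cre driven by the Foxp3 locus, and WT for Foxp3YFP-Cre/Y mice. Both groups therefore carry the Foxp3YFP-Cre allele on their single X chromosome, and its YFP is also the sorting marker. Age is not stated, nor is whether each library came from its own animal, so the p-values below measure the spread between these libraries only. The series title frames the question as whether TSLP, the cytokine whose receptor contains CRLF2, acts on Treg cells to keep their identity.

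Chemokine receptors are G protein-coupled receptors that steer cells along gradients of small secreted proteins, the chemokines. T cells that circulate through lymph nodes use CCR7, while activated and tissue Treg cells use other receptors such as CCR4, CCR8, CXCR3 and CXCR6. The set of receptors a Treg cell makes thus goes with where it travels, and CCR8 is widely used as a marker of effector Treg cells in tissues and tumours.

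Crlf2 served as the check of the labels, because the strain line of each sample description names the other strain than its title does. Crlf2 had 9.06, 6.72 and 3.55 CPM (library-scaled read counts, TMM-normalized) in the KO libraries, against 92.8, 145.7 and 105.1 CPM in the WT libraries, which goes with the titles. Foxp3, which defines Treg cells, had 386.0, 489.4 and 426.5 CPM in KO, against 473.8, 436.5 and 200.1 CPM in WT, the low value being that of WT replicate 3. None of 10 Treg markers was called, where 1.74% of all tested genes were called. Of the 10, 6 had a positive log2 fold change and 4 a negative one. Lck, a pan-T gene, lay between 955.5 and 1387 CPM in KO, against 746.6 to 1117 CPM in WT. Libraries held 9649588 to 18352405 counts in KO and 1439740 to 12180562 in WT, the least being WT replicate 2, in which 3 reads equal 2.05 CPM. Transcripts of other cells were present although the cells were sorted. Lung epithelial markers, of which 12 of 12 were in the table, took 0.26% to 2.03% of counts in KO, against 1.76% to 7.87% in WT. Scgb1a1, a club cell secretory gene, led them with 2167 to 17400 CPM in KO, against 15960 to 76750 CPM in WT, and the deposited table is named for lung while the labels name spleen and lymph node. WT replicate 3 stood apart: erythroid markers took 9.88% of its counts, against 0.117% to 0.468% in the other 5 libraries. Globin genes such as Hbb-bs and Hba-a1, each counted beside a near-identical copy (Hbb-bt and Hba-a2), led them. The B cell, macrophage and cytotoxic cell markers of WT replicate 3 were the highest of the 6 libraries. Its Treg markers took 0.19% of counts, against 0.381% to 0.423% in KO and 0.402% to 0.407% in the other WT libraries, and its pan-T genes 0.459%, against 0.83% to 0.932% in KO and 0.736% to 0.797% in the other WT libraries.

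Ccr8 and Cxcr6 were the receptor genes that rose in KO, and no receptor of the 9 was called lower by edgeR. A gene is called here when its adjusted p is under 0.05 in edgeR's quasi-likelihood test fitted on all genes. The 2 of 9 receptors called higher compare with 0.755% of all tested genes, and the 0 called lower with 0.983% (1.74% for both directions). At an unadjusted p under 0.05 there were 5 receptors, the other 3 being Ccr4, Ccr2 and Ccr7, all with lower levels in KO, against 15.9% of all tested genes. DESeq2 called Ccr4 and Ccr2 lower, where it called 3.9% of genes lower, and limma-voom, which called 1.38% of genes lower, called no receptor lower. The 3 libraries of each group lay apart for 4 receptors, against 22% of tested genes. Of these, 2 were higher in KO, against 10.4% of genes, and 2 were lower, against 11.5%. A positive log2 fold change was seen for 3 of the 9, against 45.8% of all tested genes. The median log2 fold change of the 9 genes was -0.32, and that of all tested genes was -0.04. In bulk libraries, fewer cells that carry a transcript and less of it per cell cannot be told apart.

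**Figure D1:**
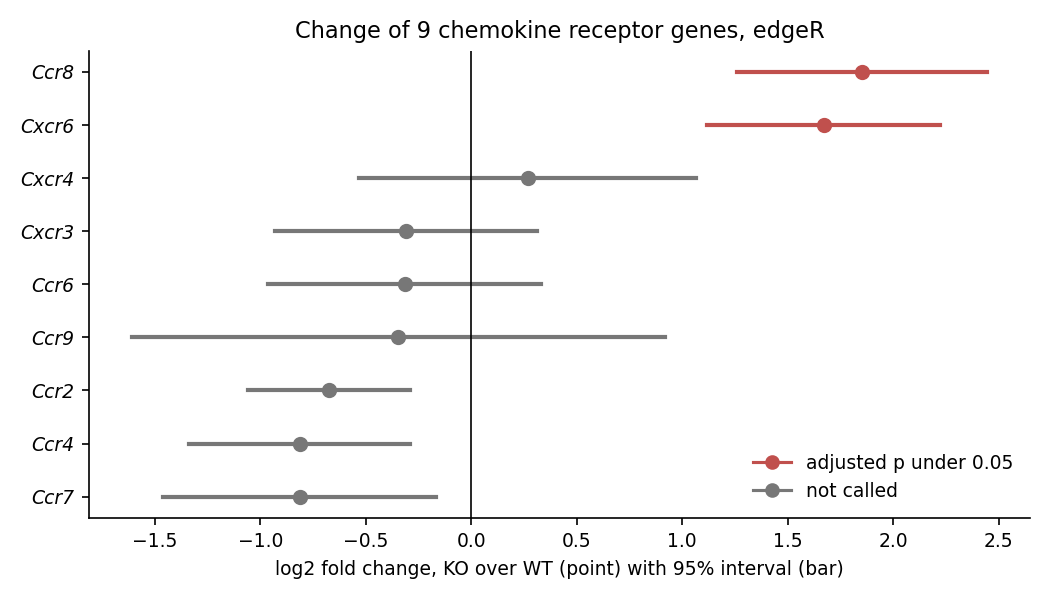
Log2 fold change of each of the 9 receptor genes, KO over WT (points, horizontal axis), with its 95% interval (bars); red marks an edgeR adjusted p under 0.05. Ccr8 at 1.85 and Cxcr6 at 1.67 lie to the right of the other 7 genes, and the intervals of Ccr2, Ccr4 and Ccr7 lie below 0 without a call.

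Ccr8 encodes the receptor for CCL1, and in mice also for CCL8. The gene lies on chromosome 9 (mm10, 120092114 to 120094906, plus strand). It was counted with 4864, 3639 and 9978 reads in KO replicates 1 to 3, against 825, 227 and 1004 reads in WT replicates 1 to 3. Scaled to library size, this is 473.6, 291.3 and 520.9 CPM in KO, against 110.3, 155.3 and 94.98 CPM in WT. The lowest KO library thus lay well above the highest WT library. The fitted change was 3.61-fold (log2 fold change 1.85, SE 0.26, 95% interval 1.26 to 2.44, adjusted p = 0.0196 by edgeR). KO libraries spread more than WT libraries in absolute terms, at 428.6 ± 121.2 CPM, against 120.2 ± 31.4 CPM in WT (here and below, ± gives the SD with n = 3 per group), with KO replicate 2 lowest in its group.

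Cxcr6 encodes the receptor for CXCL16, found on effector and tissue-resident T cells. It is also on chromosome 9 (123806475 to 123811760, plus strand). Reads numbered 3004, 3054 and 6258 in KO, against 535, 190 and 793 in WT. The levels were 292.5, 244.5 and 326.7 CPM in KO, against 71.5, 130.0 and 75.0 CPM in WT, so here too the groups were apart. The fitted change was 3.19-fold (log2 fold change 1.67, SE 0.24, 95% interval 1.12 to 2.22, adjusted p = 0.0213 by edgeR). Cxcr6 lies inside the span of Fyco1, which is transcribed from the opposite strand, and the strand setting of the counting is not given in the sources used here. Fyco1 itself had 54.8 ± 7.65 CPM in KO, against 70.8 ± 17.3 CPM in WT, and was not called (log2 fold change -0.37, adjusted p = 0.45 by edgeR). Not scaled to length, its CPM was below that of Cxcr6 in each KO library, and above it in WT replicate 1 (88.3 CPM). The Fyco1 row is 7949 bases long and the Cxcr6 row 1893. Per kilobase, Fyco1 had 11.1 CPM in WT replicate 1, against 37.8 CPM for Cxcr6. The group means per kilobase were 6.89 CPM in KO and 8.91 CPM in WT for Fyco1, against 152.1 and 48.7 CPM for Cxcr6.

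The proportion of Ccr8 to Cxcr6 reads overlapped between the groups. It was 1.62, 1.19 and 1.59 in KO, against 1.54, 1.20 and 1.27 in WT. This ratio, chosen after the values were seen, differed by 0.13 on the log2 scale between KO and WT (exact two-sided permutation p = 0.6). Over the 6 libraries, with each gene centred on its mean log2 CPM, the pair differed by 0.19 log2 units (root mean square).

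**Figure D2:**
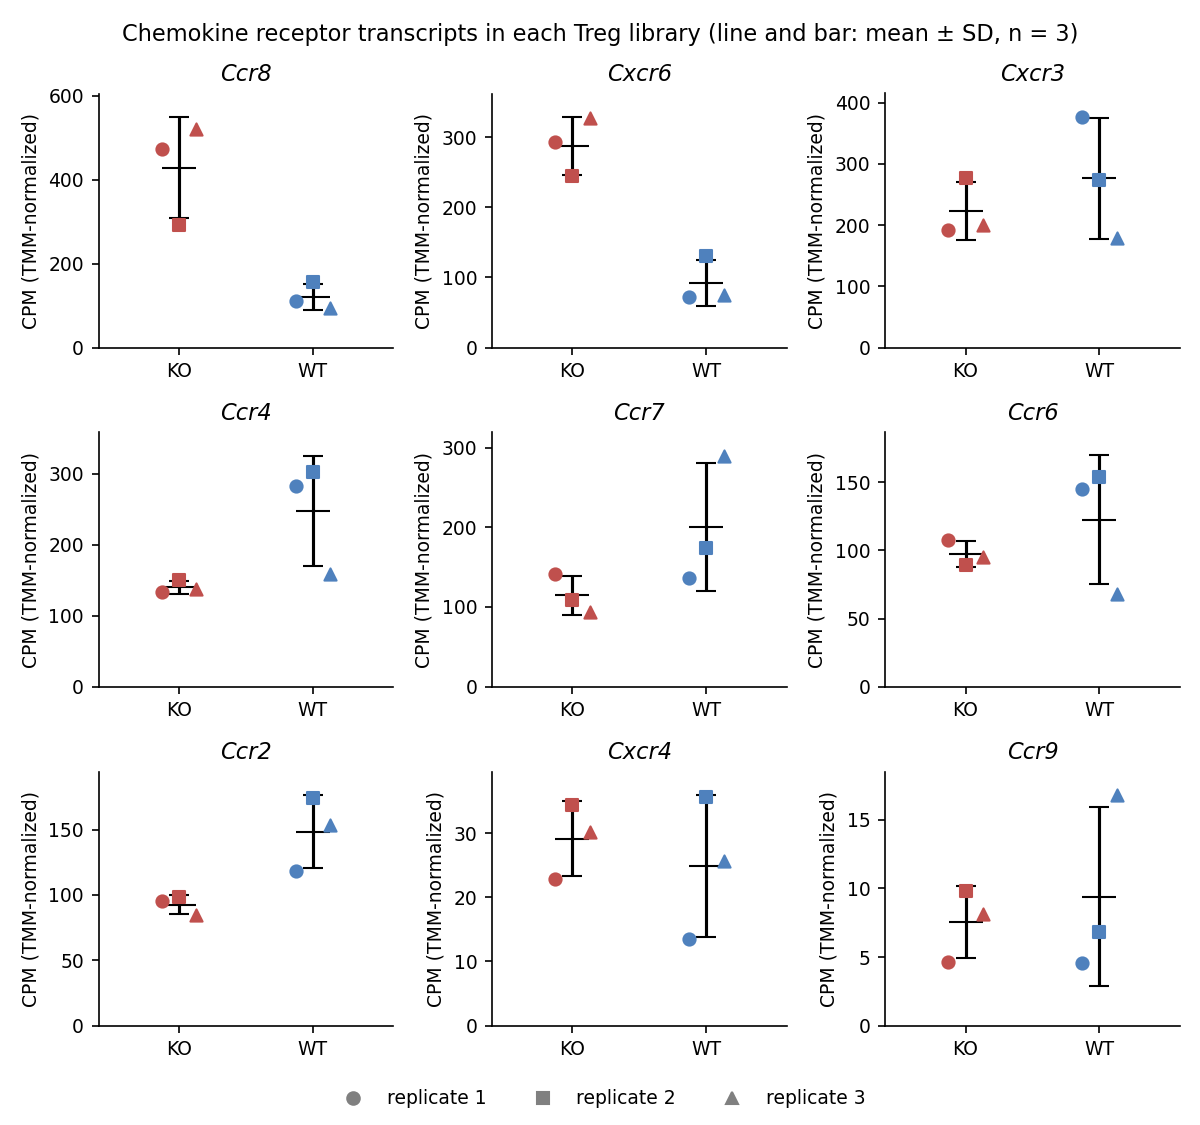
TMM-normalized CPM (vertical axes, linear, from 0) of each receptor gene in the 3 KO libraries (red, left) and 3 WT libraries (blue, right); symbols mark the replicate number, and black lines the mean ± SD. Ccr8 and Cxcr6 show KO libraries above all WT libraries, while Ccr4 and Ccr2 show them below.

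The start regions of the genes that rose together are shown next. That of Ccr6, which was not called, is added, chosen after the search because it held STAT motifs. RefSeq windows (GRCm38.p6, 250 bases before to 50 after the start) were found for 8 of the 9 genes, all but Ccr7. They were searched on both strands for 4 motifs, and no match overlapped another motif's match. The STAT motif TTCNNNGAA occurs in 7.83% of 17491 windows of this length, 1 per protein-coding gene. For the motif of AP-1 factors, spelled TGANTCA, this share is 7.08%. The motif that GATA factors bind, searched here as AGATAA, is found in 9.96% of those windows, and the KLF motif GGGNGTGG in 19.2%. Capitals mark the motif matches.
Ccr8, chr9:120091883-120092182, plus strand: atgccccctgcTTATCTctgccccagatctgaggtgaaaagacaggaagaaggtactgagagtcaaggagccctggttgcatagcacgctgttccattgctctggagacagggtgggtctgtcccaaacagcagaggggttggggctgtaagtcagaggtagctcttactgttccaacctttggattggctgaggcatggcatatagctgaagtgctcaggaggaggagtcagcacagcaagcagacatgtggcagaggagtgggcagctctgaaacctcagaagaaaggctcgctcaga
Cxcr6, chr9:123806227-123806526, plus strand: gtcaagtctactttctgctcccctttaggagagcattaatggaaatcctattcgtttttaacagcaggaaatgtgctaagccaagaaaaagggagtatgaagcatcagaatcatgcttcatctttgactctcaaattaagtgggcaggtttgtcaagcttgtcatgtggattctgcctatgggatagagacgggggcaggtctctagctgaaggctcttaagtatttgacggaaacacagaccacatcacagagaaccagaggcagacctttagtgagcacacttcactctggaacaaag
Ccr6, chr17:8235793-8236092, plus strand: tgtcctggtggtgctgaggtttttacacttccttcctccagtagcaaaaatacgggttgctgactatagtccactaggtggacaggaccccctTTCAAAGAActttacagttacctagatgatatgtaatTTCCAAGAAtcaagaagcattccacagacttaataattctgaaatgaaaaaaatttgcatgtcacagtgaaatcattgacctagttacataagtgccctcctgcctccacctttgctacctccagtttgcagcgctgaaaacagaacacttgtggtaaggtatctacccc
The Ccr8 window held 1 GATA match, in reverse orientation 239 bases before the start, and none of the other motifs. In the Cxcr6 window no match was found. The first of 2 Ccr6 windows held 2 STAT matches, 157 and 120 bases before the start, and the second held 1 GATA match. Of the 8 genes, only Ccr6 held a STAT match, where 7.83% of the 17491 windows held one. Ccr4 had an AP-1 match and Ccr2 a GATA match, while the windows of Cxcr3, Cxcr4 and Ccr9 had none. These letters are a description of the windows, and binding was not measured here.

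Ccr4, Ccr2 and Ccr7 had lower levels in KO that did not pass the test over all genes. Ccr4, the receptor for CCL17 and CCL22 (chromosome 9, 114490316 to 114504916, minus strand), had 133.3, 150.6 and 137.0 CPM in KO, against 282.3, 302.4 and 158.3 CPM in WT. Each KO library was below each WT library, although KO replicate 2 was close to WT replicate 3. The log2 fold change was -0.81 (SE 0.23, 95% interval -1.34 to -0.29, adjusted p = 0.13 by edgeR). Without WT replicate 3 it was -1.05 and called (adjusted p = 0.00333 by edgeR), in a fit that called 2.13% of genes lower. Scaled to 13 pan-T genes such as Cd3e and Lck, it was -1.03 and called (adjusted p = 0.0329 by edgeR). That scaling moves the median of all genes to -0.34, and 1.23% of genes were called lower under it. No other fit without 1 library called Ccr4 (adjusted p from 0.234 to 0.406 by edgeR). Ccr4 was also not called with the replicate number as a block or the lung epithelial share as covariate (edgeR adjusted p = 0.19 and 0.547), nor by limma-voom (adjusted p = 0.158).

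Ccr2 encodes the receptor for CCL2 and is known above all for guiding monocytes, though Treg cells also use it. Its gene lies on chromosome 9 (124101950 to 124113557, plus strand). Levels were 95.1, 98.3 and 84.4 CPM in KO, against 118.1, 173.8 and 153.5 CPM in WT, again without overlap. The log2 fold change was -0.67 (SE 0.17, adjusted p = 0.0937 by edgeR). Monocyte and macrophage markers, of which 13 of 14 were in the table and none was at 0 in all libraries, took 0.272% to 0.291% of counts in KO, against 0.047%, 0.0865% and 0.759% in WT (replicates 1, 2 and 3), a sum carried by Chil3 and Lyz2. Other genes of the list did not all follow it, as Cybb had 23.5, 46.2 and 17.9 CPM in KO, against 41.6, 41.7 and 242.9 CPM in WT. The part of such cells in the Ccr2 value was not tested. Without WT replicate 3 the Ccr2 log2 fold change was -0.64.

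Ccr7, the receptor for CCL19 and CCL21 that brings T cells into lymph nodes (chromosome 11, 99144196 to 99155077, minus strand), had 141.0, 108.5 and 94.1 CPM in KO, against 136.8, 174.5 and 289.9 CPM in WT. The groups overlapped, since KO replicate 1 exceeded WT replicate 1. The log2 fold change was -0.81 (SE 0.28, adjusted p = 0.208 by edgeR), and -0.43 without WT replicate 3. In that library B cell markers, all 10 of which were in the table, took 0.0374% of counts, against 0.00219% to 0.00349% in KO and 0.00236% to 0.00253% in the other WT libraries. CD8 T and NK cell markers (10 of 10 in the table) took 0.0452% there, 0.00198% to 0.00364% in KO, and 0.00289% to 0.00389% in the other WT libraries. Their part in the Ccr7 value was not tested.

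The remaining 4 receptors overlapped between groups. Cxcr3, the receptor for the interferon-induced ligands CXCL9, CXCL10 and CXCL11 and a receptor of Th1-type Treg cells, had 191.9, 277.6 and 199.4 CPM in KO, against 377.1, 273.0 and 179.4 CPM in WT. The WT libraries enclosed the KO libraries (log2 fold change -0.31, 95% interval -0.93 to 0.31, adjusted p = 0.631 by edgeR). Without WT replicate 1 this log2 fold change was -0.0023, without WT replicate 3 it was -0.55, without KO replicate 1 -0.21, and without KO replicate 2 -0.49. Ccr6, the CCL20 receptor of mucosal and Th17-type T cells, had 107.7, 89.0 and 95.5 CPM in KO, against 145.1, 154.0 and 68.3 CPM in WT. WT replicate 3 was the lowest and the other WT libraries the highest of all (log2 fold change -0.32, 95% interval -0.96 to 0.33, adjusted p = 0.642 by edgeR). The Ccr6 log2 fold change was -0.61 without WT replicate 3 (adjusted p = 0.054 by edgeR), -0.14 without WT replicate 1 and -0.11 without WT replicate 2. Ccr6 was the gene with most rows, 7, and the longest of them gave a log2 fold change of -0.40.

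Cxcr4, the receptor for CXCL12 that holds cells in bone marrow and other niches, had 22.8, 34.3 and 30.2 CPM in KO, against 13.5, 35.6 and 25.7 CPM in WT. The KO libraries lay inside the range of the WT libraries (log2 fold change 0.27, 95% interval -0.53 to 1.06, adjusted p = 0.765 by edgeR), and the sign turned to -0.05 when scaled to pan-T genes. Ccr9, the CCL25 receptor of gut-homing T cells, was the scarcest, with 48, 123 and 156 reads in KO, against 34, 10 and 178 reads in WT. Its levels were 4.67, 9.85 and 8.14 CPM in KO, against 4.55, 6.84 and 16.8 CPM in WT. The single high value was that of WT replicate 3, and the log2 fold change of -0.35 (95% interval -1.61 to 0.92, adjusted p = 0.814 by edgeR) was 0.47 without it. The annotated span of Ccr9 overlaps Lztfl1 and Slc6a20a on the other strand.

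**Figure D3:**
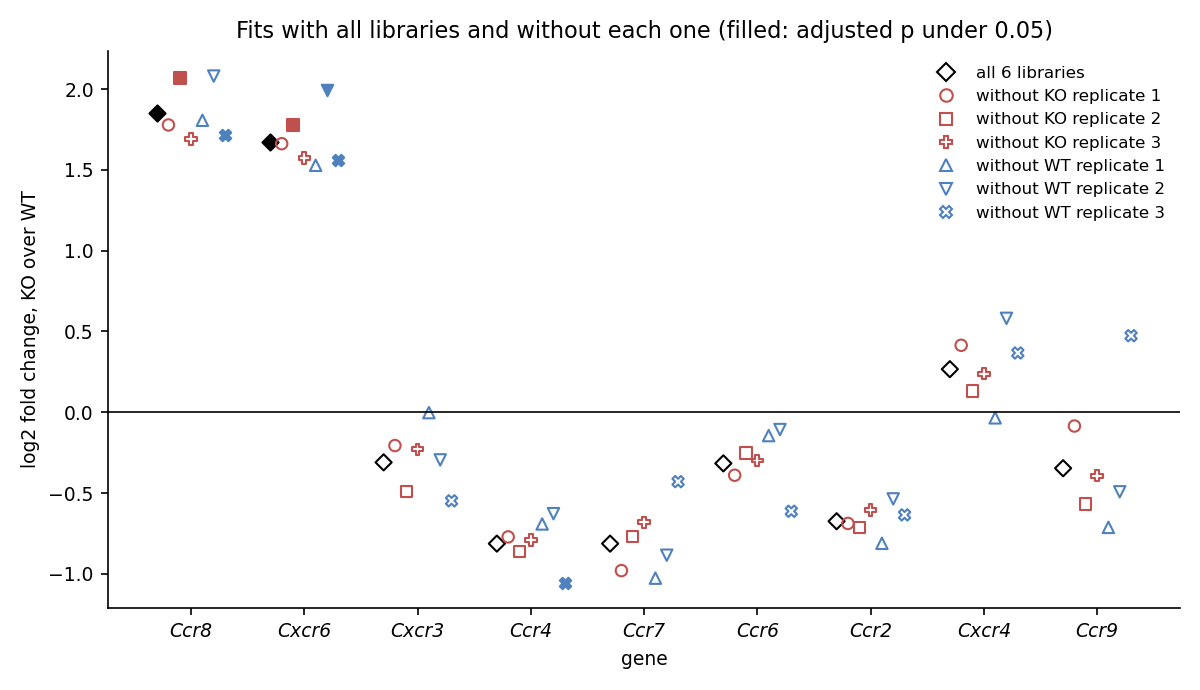
Log2 fold change, KO over WT (vertical axis), of each receptor gene with all 6 libraries (black) and without each library in turn (red, a KO library left out; blue, a WT library); filled symbols have an edgeR adjusted p under 0.05. Ccr8 stays between 1.69 and 2.08 and Cxcr6 between 1.53 and 1.99, while Ccr9 and Cxcr4 cross 0.

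Leaving out single libraries changed the calls of Ccr8 and Cxcr6 more than their size. Neither was called by edgeR when KO replicate 1, KO replicate 3 or WT replicate 1 was dropped, with adjusted p of 0.116, 0.126 and 0.076 for Ccr8 and 0.123, 0.142 and 0.0617 for Cxcr6. Without WT replicate 2, Cxcr6 was called (adjusted p = 0.0266) and Ccr8 was not (adjusted p = 0.0526 by edgeR). Those fits called 0.0151% of all genes higher without KO replicate 1 (0.0151% lower), 0.0228% higher without KO replicate 3 (0.0304% lower), 0.121% higher without WT replicate 1 (0.128% lower) and 0.0899% higher without WT replicate 2 (0.0749% lower). Both receptors were called without KO replicate 2, where 0.329% of genes were called higher and 0.62% lower, and without WT replicate 3, where 1.87% were called higher. Both were also called under the following settings, given with the shares of all genes they called. DESeq2's factors within edgeR gave 0.731% higher and 0.896% lower, and upper-quartile scaling 0.778% and 0.888%. Scaling to pan-T genes gave 0.197% higher. Testing without a low-count filter gave 0.652% higher and 0.71% lower, and the longest transcript row 0.763% and 1%. DESeq2 gave 2.89% higher, limma-voom 1.05%, and limma-voom with quality weights 0.825% higher and 1.74% lower. With the share of lung epithelial markers as a covariate, the estimates were 1.56 for Ccr8 and 1.39 for Cxcr6 on the log2 scale (adjusted p = 0.169 and 0.168 by edgeR). That fit called 0% of the tested genes in either direction.

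The order of levels among the receptors, read as CPM per kilobase of transcript, was not the same in KO as in WT. In KO, Ccr8 stood first at 371 ± 105 (SD, n = 3), clear of Cxcr6 at 152 ± 21.8 and Cxcr3 at 139 ± 29.5, whose ranges overlapped. Ccr6, Ccr7 and Ccr4 followed at 62.6, 58.0 and 50.4 with overlapping ranges, and then Ccr2 at 25.8, Cxcr4 at 16.1 and Ccr9 at 1.72, each apart from its neighbour. In WT, Cxcr3 stood first at 172 ± 61.5, followed by Ccr8 at 104 ± 27.1, Ccr7 at 102 ± 40.4, Ccr4 at 88.9, Ccr6 at 78.8, Cxcr6 at 48.7 and Ccr2 at 41.4. Each of these 7 overlapped in range with its neighbours in the order, while Cxcr3, Ccr8 and Ccr7 lay wholly above Cxcr6 and Ccr2, and Ccr4 lay wholly above Ccr2. Cxcr4 at 13.8 and Ccr9 at 2.14 again came last.

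Expressed as shares of the 9 genes' summed CPM per kilobase, Ccr8 made up 44.9%, 32.8% and 47.6% in KO, against 14.2%, 18.2% and 15.2% in WT. Cxcr6 made up 16.9%, 16.8% and 18.2% in KO, against 5.62%, 9.30% and 7.32% in WT. Together they held 61.9%, 49.6% and 65.8% in KO, against 19.8%, 27.5% and 22.5% in WT. The shares of Ccr4, Ccr7, Ccr6 and Ccr2 were lower in each KO library than in each WT library. Ccr4, for example, took 5.82 ± 1.05% in KO, against 13.4 ± 2.54% in WT. Shares sum to the same whole, so a larger Ccr8 share lowers the others. As a share of all counts, the 9 genes took 0.141% to 0.156% in KO and 0.0922% to 0.143% in WT.

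**Figure D4:**
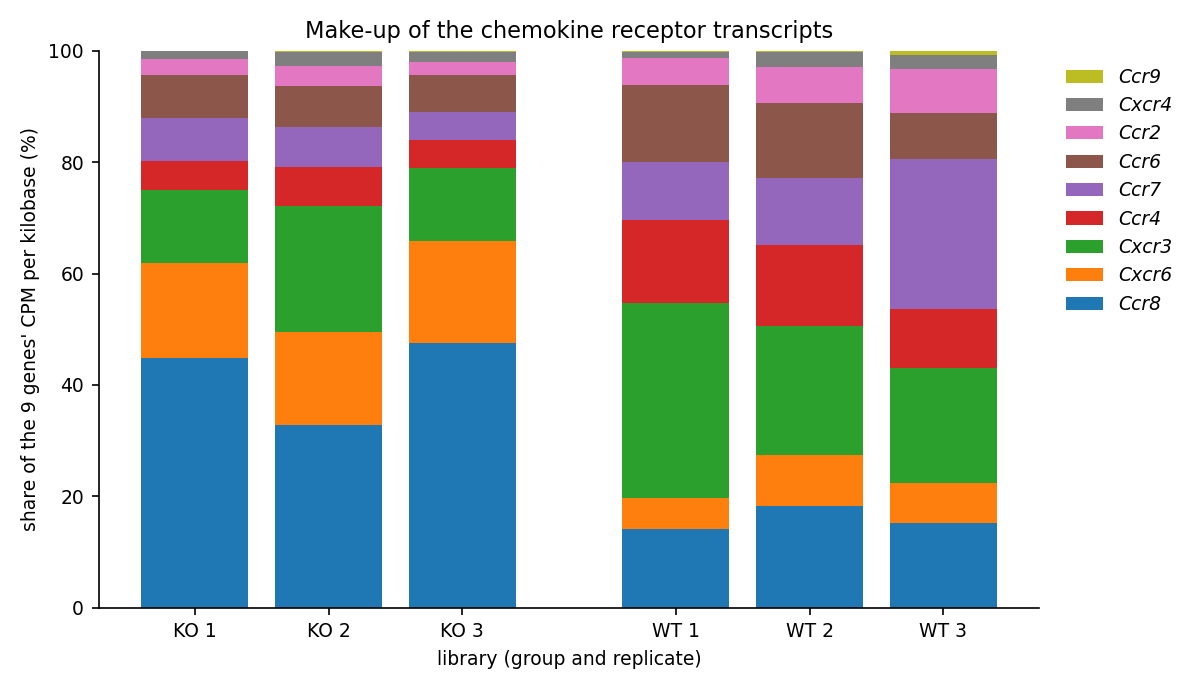
Share of each receptor gene in the summed CPM per kilobase of the 9 genes (vertical axis, percent), 1 bar per library, KO on the left and WT on the right. Ccr8 (blue) and Cxcr6 (orange) together fill 49.6% to 65.8% of the KO bars and 19.8% to 27.5% of the WT bars.

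Ratios of reads within a library do not depend on how libraries are scaled. Ccr8 reads per Ccr4 read were 3.55, 1.93 and 3.80 in KO, against 0.391, 0.514 and 0.600 in WT. Ccr8 reads thus outnumbered Ccr4 reads in each KO library and were fewer in each WT library, a 6.01-fold difference between the groups. Reads also depend on transcript length, which was 1156 bases for Ccr8 and 2787 for Ccr4. Per kilobase, Ccr8 had 95.4, 134.4 and 82.2 CPM in WT, against 101.3, 108.5 and 56.8 CPM for Ccr4. By length, Ccr8 was thus the higher of the pair in WT replicates 2 and 3. Ccr8 reads per Ccr7 read were 3.36, 2.68 and 5.53 in KO, against 0.807, 0.890 and 0.328 in WT, a 5.96-fold difference. Cxcr6 reads per Cxcr3 read were 1.52, 0.881 and 1.64 in KO, against 0.190, 0.476 and 0.418 in WT, a 3.88-fold difference. For none of these 3 ratios did the groups overlap, and each exact two-sided permutation test gave p = 0.1, the smallest that 3 libraries against 3 allow (0.1 after Benjamini-Hochberg adjustment over the 3). Each ratio sets a receptor called higher in KO over one with a lower fitted value, in the same libraries. Their separation is thus no support independent of those calls.

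Of 15 other chemokine receptor genes, 10 were tested and edgeR called none (1.74% of all tested genes were called), with 3 at an unadjusted p under 0.05 (15.9% of all). Their median log2 fold change was -0.63, with 1 of 10 values positive, against 45.8% of all tested genes. The one of smallest p was Cxcr5, which guides cells into B cell follicles, at 5.36 ± 0.93 CPM in KO, against 19.8 ± 10.9 CPM in WT (adjusted p = 0.0831 by edgeR). Among 16 genes for ligands of the 9 receptors, 9 were tested and 1, Cxcl10, was called lower, against 0.983% of all tested genes. Cxcl10, an interferon-induced ligand of CXCR3, was at 8.37 ± 2.05 CPM in KO, against 86.4 ± 38.0 CPM in WT (log2 fold change -3.35, SE 0.36, adjusted p = 0.00922 by edgeR). Cxcr5 had 19.8, 8.9 and 30.6 CPM in WT replicates 1 to 3, against 4.28, 5.84 and 5.95 CPM in KO. B cell markers took 0.00253%, 0.00236% and 0.0374% of counts in these WT libraries, against 0.00219% to 0.00349% in KO. The part of other cells in the Cxcr5 values was not tested. The ligand list had a median log2 fold change of -0.52.

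Another list held genes that carry the receptor signal to the cytoskeleton and integrins. Of 39 tested, 1 was called higher and 0 lower by edgeR, against 0.755% and 0.983% of all tested genes. An unadjusted p under 0.05 was found for 7, near the 15.9% of all genes, and the median log2 fold change was -0.0029. The called gene, Rgs16, encodes a regulator that shortens G protein signals, and was at 132 ± 46.8 CPM in KO, against 46.6 ± 11.9 CPM in WT (log2 fold change 1.54, SE 0.30, adjusted p = 0.0491 by edgeR). Among 10 genes of lymph node recirculation and egress, 9 had lower fitted values in KO, with 1 positive against 45.8% of all genes (median -0.44 on the log2 scale). There were 4 at an unadjusted p under 0.05, against 15.9% of all genes, and edgeR called 0 higher and 1 lower, against 0.755% and 0.983%. Of 14 transcription factors linked to receptor choice, 2 were called higher and 0 lower by edgeR, against the same 0.755% and 0.983%, with 6 at an unadjusted p under 0.05 (15.9% of all genes) and a median log2 fold change of 0.18. Id2, an inhibitor of E proteins, was at 708 ± 86.2 CPM in KO, against 333 ± 52.4 CPM in WT (log2 fold change 1.09, SE 0.15, adjusted p = 0.0181 by edgeR). Pparg, a nuclear receptor of tissue Treg cells that alveolar macrophages also express, had 49.7, 32.2 and 44.8 CPM in KO, against 8.96, 8.21 and 14.9 CPM in WT (log2 fold change 1.93, SE 0.30, adjusted p = 0.0263 by edgeR). The summed macrophage marker share was higher in KO than in WT replicates 1 and 2 and lower than in WT replicate 3, and the part of such cells in the Pparg value was not tested.

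The genes outside the receptor set whose pattern over the 6 libraries lay closest to Ccr8 were Fgl2, Ltb4r1 and Dkk3, at root mean square differences of 0.20, 0.20 and 0.21 log2 units. Fgl2, which encodes a secreted suppressive protein, was at 1089 ± 147 CPM in KO, against 331 ± 64.4 CPM in WT. Ltb4r1, the gene for a leukotriene B4 receptor and thus of another chemoattractant receptor, was at 418 ± 132 CPM in KO, against 111 ± 5.78 CPM in WT. Closest to Cxcr6 were Tff1, Sv2c and Podnl1, at 0.18, 0.18 and 0.19 log2 units, and of these Podnl1 was the most abundant, at 314 ± 31.3 CPM in KO, against 83.2 ± 25.5 CPM in WT. Likeness here is a description of levels over 6 libraries that fall in 2 groups, and was not tested.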

How the data were processed

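The table that the authors deposited holds raw counts, 1 row per RefSeq transcript, beside that transcript's length in bases, per the file headers. The tools that the submitters' processing notes list are bcl2fastq, Bowtie2 (2.2.6) and TopHat2 (2.2.1), with mm10 as genome build. The sources used here do not say which program counted the reads, with which strand setting, or how shared reads were split. Of 31682 rows, the one with the highest total was kept per symbol. After filterByExpr (a count of 10, a total of 15), 12720 genes were tested with edgeR 4.0.16 in R 4.3.3 (TMM factors, robust glmQLFit, glmQLFTest) and adjusted by Benjamini-Hochberg over all of them. The SE of a log2 fold change is its size divided by the square root of F. DESeq2 1.42.0 and limma 3.58.1 were alternatives. The code was tested on simulated data.

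Groups came from titles and genotype tags. Members and lists were chosen with earlier results of these data known. Named genes are the 9 members, Crlf2, Foxp3, genes that overlap a member, up to 4 called genes of smallest p (or, where none was called, the 2 of smallest p) in each list of receptors, ligands, signalling, recirculation and transcription factors, the 2 most abundant genes of each marker list, and, for each called member, the 3 genes of at least 10 CPM nearest in centred log2 CPM (prior count 2). Only some of the marker genes are given with values, and 2 other genes that the rule names are not reported here. No gene of a marker list was called, where 1.74% of all tested genes were called. Median log2 fold changes were 0.08 for Treg markers, 0.22 for pan-T genes, -0.84 for macrophages, -2.45 for B cells and -2.57 for neutrophils. They were -1.81 for dendritic cells, -3.74 for CD8 T and NK cells, -4.72 for erythroid, -1.77 for lung epithelial and -0.45 for endothelial cells. Gene positions are from GENCODE (GRCm38, the build also called mm10). No 2 libraries agreed within sampling noise (lowest chi-square per degree of freedom 13.1).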

Additional observations from a re-analysis of the deposited data

How the results depend on the processing

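The 2 receptors called higher, Ccr8 and Cxcr6, were also called when edgeR used the size factors of DESeq2 or upper-quartile scaling, when scaled to pan-T genes, without the low-count filter, with DESeq2, limma-voom with or without sample quality weights, and with the longest transcript row. The number was 0 with the replicate number as a block and 0 with lung epithelial transcripts as a covariate, and 0 to 2 in the fits without 1 library. The number called lower was 1 when scaled to pan-T genes, which called 1.23% of all genes lower, and 2 with DESeq2, which called 3.9%. It was 0 to 1 without 1 library, where 0.0151% to 2.13% of all genes were called lower. Of all genes, 221 were called, against 863 with DESeq2, 123 with the replicate block, 0 with the lung covariate and 4 to 518 without 1 library. The cause was not tested, though fits without a library have fewer samples. Same-numbered KO and WT libraries did not deviate together (r of 0.084, -0.147 and -0.045 across genes), so the numbers were not taken as pairs. With the replicate block Ccr8 had a log2 fold change of 1.84 (edgeR adjusted p = 0.0908) and Cxcr6 of 1.70 (edgeR adjusted p = 0.0508). Signs turned for Ccr9 without WT replicate 3 (0.47, from -0.71 to 0.47 over the fits without 1 library), for Cxcr3 with the lung covariate (0.016), and for Cxcr4 when scaled to pan-T genes (-0.051), with the lung covariate (-0.0073) and without WT replicate 1 (-0.035, from -0.035 to 0.58 over such fits). Without 1 library, the log2 differences of the 3 ratios between groups ran from 2.41 to 2.90 for Ccr8 to Ccr4, 2.12 to 2.84 for Ccr8 to Ccr7, and 1.54 to 2.24 for Cxcr6 to Cxcr3. The depth of WT replicate 2 limits scarce genes such as Ccr9, with 10 reads there.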
